A study of Mus musculus with 18 samples.

Results

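Intermittent hypoxia treatment (IHT) for 28 days was set against 28 days of normoxia in the mouse hippocampus. IH28D mice went through daily IHT and were killed directly after the last session, at the end of the afternoon. Ctrl28 mice were reared for the same 28 days without hypoxia, and the sources used here give no hour of death for them. Both groups were C57BL/6J males without a transgene, 10 weeks of age when the experiment began. One IHT session lasted 8 h and consisted of 3 min cycles in which nitrogen lowered the inspired oxygen from 21 to 5% and room air restored it. The 6 arrays were chosen by their titles and treatment labels and are 6 of 18 in the series, 3 for each group, and no measured value entered the choice. All 45101 probe sets of these Affymetrix mouse arrays were considered. The other 12 arrays served to estimate the spread between arrays. They came from untreated mice (Ctrl), mice with 5 days of IHT (IH5D), mice with 5 days of IHT and then 2 days of normoxia (IH5DR2) and mice reared for 12 months (12 m). Signals of the Ctrl arrays, from untreated mice without the 28 days of rearing, are given beside some genes and lists as a further level and not as a test. Ctrl28 is the control made for IH28D.

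IHT is used as a model of sleep-disordered breathing, in which oxygen falls and recovers many times a day. In the hippocampus, excitatory transmission runs through AMPA receptors, whose number at the synapse is set by auxiliary subunits, scaffolds and the phosphorylation of all of them. Tau is a microtubule-associated protein of axons, and the same kinases and phosphatases that act at the synapse also set its phosphorylation. Hypoxia is known to turn on genes of glycolysis and of vessel growth through the transcription factor HIF-1.

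The groups differed in a measure of RNA quality. The 3′ minus 5′ difference in log2 signal of the control probe sets for Actb and Gapdh, which grows as RNA is degraded, averaged 0.33, 0.42 and 0.34 in IH28D, against 2.39, 0.82 and 0.97 in Ctrl28. Every Ctrl28 array lay above every IH28D array, and Ctrl28 array 1 stood far apart. In Ctrl the difference was 0.43, 0.34 and 0.47, and in 12 m it was 0.62, 0.86 and 0.79, nearer to Ctrl28 arrays 2 and 3. Ctrl28 arrays also carry later record numbers than all others, so a run effect and the 28 days of hypoxia cannot be told apart. Of 167 named genes that passed, 144 also did without Ctrl28 array 1 and 103 with the 3′ to 5′ difference (the gap) as a covariate in the fit, and genes in the text that lost their call are marked in their paragraph. Within groups, the gap varied most in Ctrl28, where array 1 stood apart. The slope of the covariate therefore rests largely on that array, and this fit and the one without the array are not separate checks. The part of RNA quality in the other results was not tested. Correlations of log2 signals were 0.886 to 0.890 within IH28D and 0.875 to 0.903 within Ctrl28.

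More genes rose than fell after 28 days of hypoxia. Of 11656 genes tested, 705 rose (6.05%) and 285 fell (2.45%), 8.49% in all, at an adjusted p below 0.05 in the limma fit. Without Ctrl28 array 1, 11.4% rose and 4.19% fell, and with the gap as a covariate 11.0% rose and 4.94% fell. Over all genes the median log2 change was 0.02, with IH28D over Ctrl28 as the direction throughout. Rises were also larger. The median change was 0.78 among genes that rose, with 168 changed 2-fold or more, against -0.57 among genes that fell, with 9 changed 2-fold or more. The 3 IH28D arrays and the 3 Ctrl28 arrays did not overlap in 23.6% of the genes tested, among them 670 of the 705 that rose and 282 of the 285 that fell. When each array was centred on its median, 410 rose and 401 fell, so the excess of rises over falls depends on the scaling. Values below are unlogged signals of arrays 1, 2 and 3, whose level cannot be compared between genes, and log2 changes carry their standard error (SE). The labels do not say whether each array is a separate mouse, so p-values measure the spread between arrays, which may be technical.

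**Figure D1:**
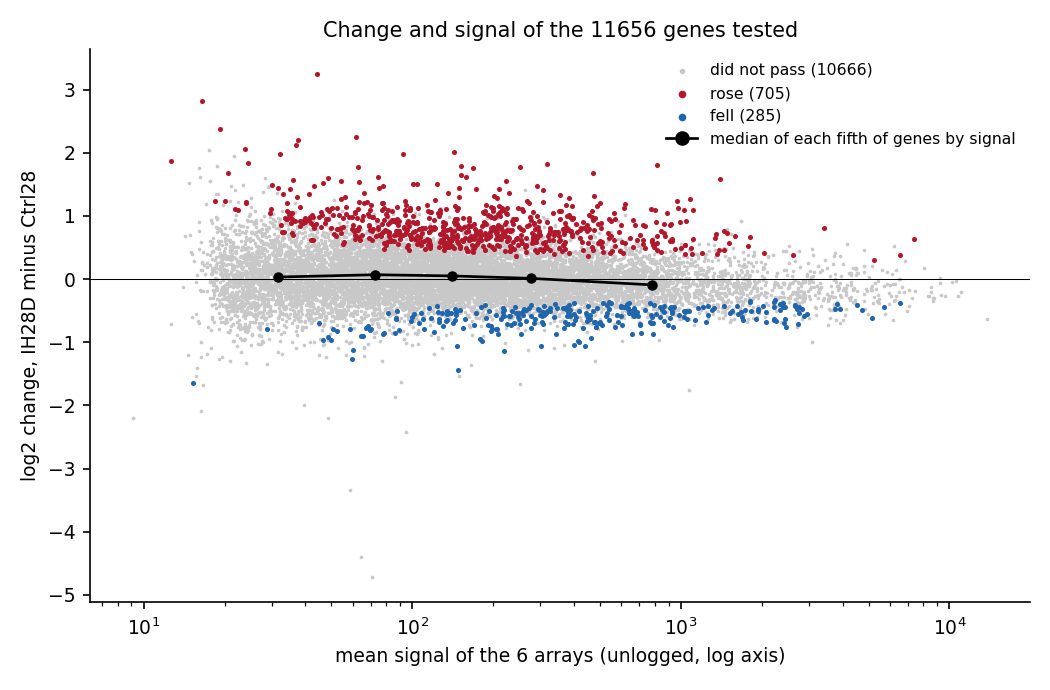
Log2 change of IH28D over Ctrl28 (vertical axis) against the mean signal of the 6 arrays (horizontal log axis) for each gene tested. Red points rose (705), blue points fell (285), grey points did not pass, and the black line joins the medians of 5 groups of genes ordered by signal, which run between -0.09 in the brightest and 0.07 in the second-dimmest.

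The 12 largest rises were in genes of several functions. Cacng3, which encodes a transmembrane AMPA receptor regulatory protein (TARP), had signals of 96.7, 112 and 93.9 in IH28D, against 11.8, 26.6 and 29.6 in Ctrl28 (log2 2.26 ± 0.30, adjusted p = 0.000186). Kif1a, which encodes the kinesin that carries synaptic vesicle precursors along axons, had 205, 237 and 236 in IH28D, against 32.2, 82.0 and 65.4 in Ctrl28 (log2 2.02 ± 0.25, adjusted p = 0.000103). Grik5, which encodes a kainate receptor subunit, had 243, 202 and 254 in IH28D, against 102, 56.6 and 52.9 in Ctrl28 (log2 1.78 ± 0.20, adjusted p = 3.81e-05). In each of these genes the lowest IH28D array was at least 1.98 times the highest Ctrl28 array. Pcsk1n, which encodes the granule protein proSAAS, had the smallest adjusted p of the genes named, with signals of 1453, 1052 and 1300.1 in IH28D, against 423, 337 and 321 in Ctrl28 (log2 1.81 ± 0.14, adjusted p = 1.35e-06). Nnat, an imprinted gene for the membrane protein neuronatin, had 596, 515 and 375 in IH28D, against 185, 124 and 112 in Ctrl28 (log2 1.83 ± 0.44, adjusted p = 0.0174).

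Ldb1 and Ssbp4, which encode partners in a transcription factor complex with LIM domain proteins, changed by 1.98 ± 0.26 and 1.61 ± 0.17. Tomm40, which encodes the channel for protein import into mitochondria, had 268, 250.0 and 255 in IH28D, against 57.2, 102 and 74.6 in Ctrl28 (log2 1.77 ± 0.16, adjusted p = 9.72e-06). Get3, whose product inserts tail-anchored proteins into the endoplasmic reticulum, had 441, 381 and 334 in IH28D, against 166, 95.2 and 90.1 in Ctrl28 (log2 1.77 ± 0.19, adjusted p = 2.41e-05). The 12 largest rises and falls were chosen among genes that passed and did not overlap between the groups, and 23.6% of all genes tested did not overlap. Mlf2 changed by 1.67 ± 0.15, Akt1s1, which encodes the mTORC1 inhibitor PRAS40, by 1.65 ± 0.16, and Clec2l by 1.62 ± 0.33. In Ctrl the signals of Cacng3 were 66.4, 100.1 and 84.7, those of Kif1a 315, 201 and 205 and those of Tomm40 306, 314 and 308, all above the Ctrl28 arrays. All 12 largest rises also passed without Ctrl28 array 1 and with the gap as a covariate. The change of Cacng3 was then 1.84 and 1.43, and that of Grik5 2.08 and 2.38.

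The largest falls were smaller and were spread over unrelated functions. Lyz1, a lysozyme gene whose probe sets here also match other sequences, had 104, 64.2 and 61.8 in IH28D, against 350.5, 167 and 141 in Ctrl28 (log2 -1.44 ± 0.31, adjusted p = 0.00837). S100a10, which encodes the annexin A2 partner p11, had 179.9, 105 and 108 in IH28D, against 509, 185 and 233 in Ctrl28 (log2 -1.14 ± 0.29, adjusted p = 0.0229). In both genes Ctrl28 array 1 was the highest of the 6, and neither passed with the gap as a covariate (changes of -0.65 and -0.28, adjusted p = 0.248 and 0.587). Gnal, which encodes the G protein alpha subunit of olfactory and striatal neurons, had 283, 227 and 283 in IH28D, against 517, 556 and 544 in Ctrl28 (log2 -1.04 ± 0.21, adjusted p = 0.00575). Fam81a had 273, 276 and 309.6 in IH28D, against 545, 665 and 575 in Ctrl28 (log2 -1.05 ± 0.17, adjusted p = 0.000764). The Ctrl28 arrays of these last genes lay close together, and both passed in both fits, as did Xrn2. Xrn2, which encodes a nuclear exonuclease of transcription termination, had 89.4, 87.7 and 98.0 in IH28D, against 118, 244 and 239 in Ctrl28, with Ctrl28 array 1 the lowest of its group (log2 -1.06 ± 0.23, adjusted p = 0.00837). The other probe set of Xrn2 moved by 0.18 and that of Gnal by -0.09. In Ctrl the signals were 331, 230 and 301 for Fam81a, 248, 240 and 177 for Gnal and 86.0, 57.7 and 81.9 for Xrn2. All of these lay below every Ctrl28 array. The Ctrl arrays of S100a10 were at 299.9, 297 and 316, above every IH28D array, and those of Lyz1, at 130, 97.1 and 146, overlapped both groups.

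The remaining large falls ranged between -1.06 and -0.88. Ric8a, which encodes a chaperone of G protein alpha subunits, fell by 1.06 on its brightest probe set, while its other probe set moved by 0.25. Marf1, an RNA regulator known from mouse oocytes, had 231, 234 and 382 in IH28D, against 660.2, 544 and 451 in Ctrl28 (log2 -0.99 ± 0.19, adjusted p = 0.00386), and only 1 of its 3 probe sets was lower. Asrgl1, which encodes an asparaginase, had 339, 240.0 and 261 in IH28D, against 611, 503 and 534 in Ctrl28 (log2 -0.98 ± 0.15, adjusted p = 0.000523), with 3 of 4 probe sets lower. Ccdc28a, Wdr73, Minar2 and Apcdd1, the last an inhibitor of Wnt signaling, changed by -0.98 ± 0.17, -0.94 ± 0.17, -0.94 ± 0.17 and -0.88 ± 0.23. The other probe set of Wdr73 moved by 0.16. Apcdd1 did not pass without Ctrl28 array 1, and Ric8a, Marf1, Wdr73 and Apcdd1 did not pass with the gap as a covariate (adjusted p = 0.109, 0.0577, 0.065 and 0.288).

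**Figure D2:**
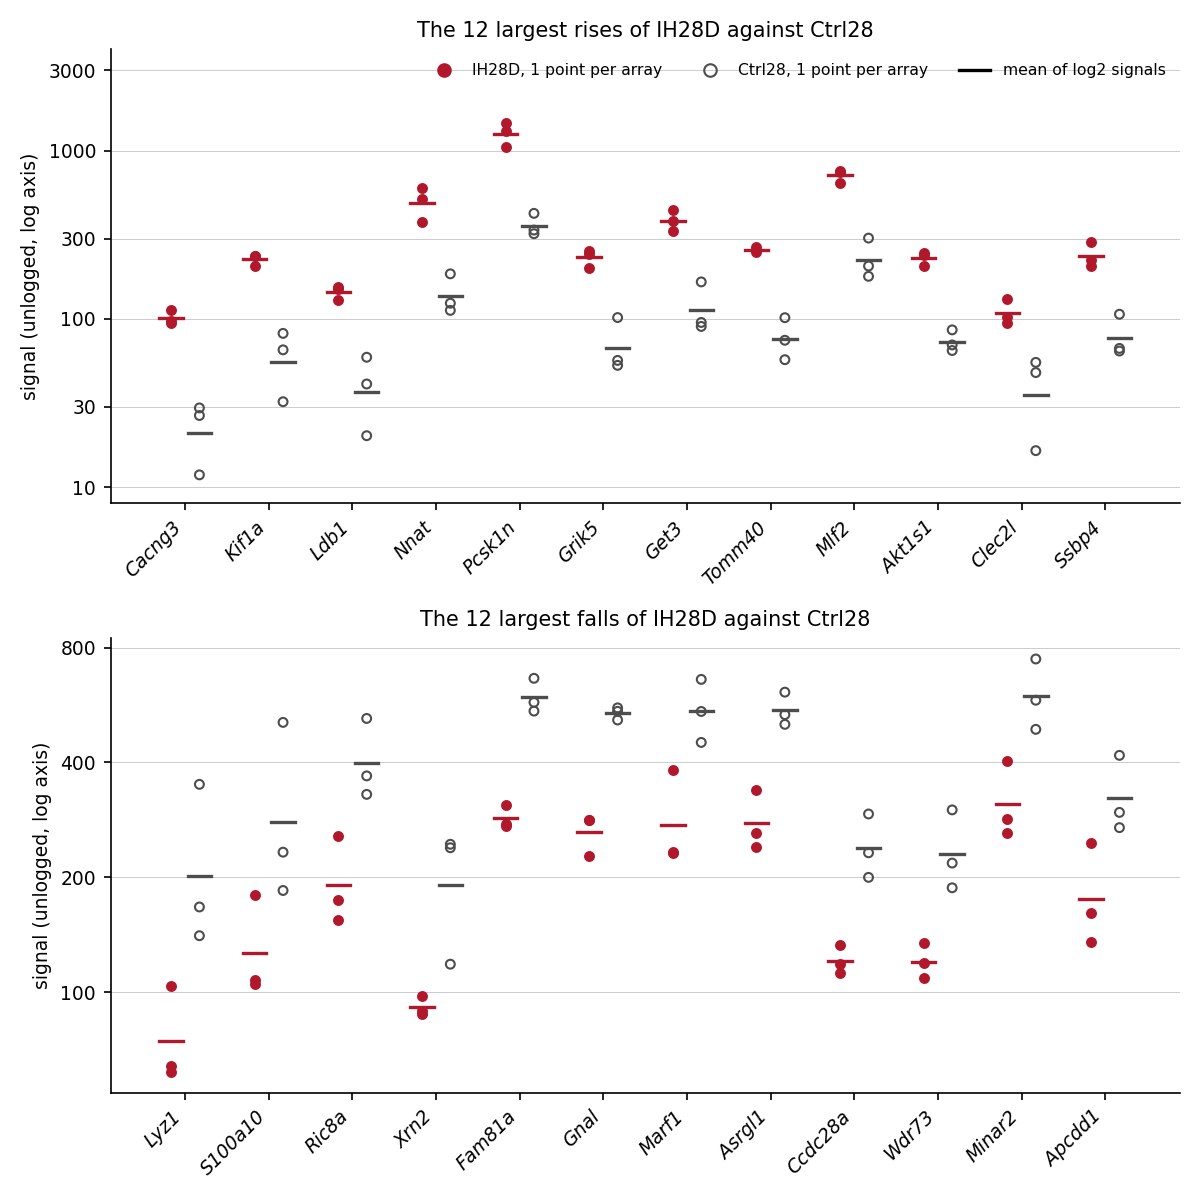
Signals (unlogged, log axis) of the 12 largest rises (top) and the 12 largest falls (bottom), 1 point per array, with IH28D in filled red on the left and Ctrl28 in open grey on the right of each gene and the mean of log2 signals as a bar. No gene shown overlaps between the groups, because only genes without overlap were chosen. The IH28D arrays of Cacng3 lie between 93.9 and 112, against 11.8 to 29.6 in Ctrl28.

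The AMPA receptor list had the largest share of rises of all lists with 10 or more members tested. Of 23 AMPA receptor subunits and auxiliary proteins, 6 rose (26.1%) and 0 fell, with a median log2 change of 0.41. Of all genes 6.05% rose, and 21 of the list had a change above 0. Besides Cacng3, the TARP genes Cacng8 and Cacng2 rose. Cacng8 had 41.0, 37.6 and 34.6 in IH28D, against 5.13, 15.1 and 9.60 in Ctrl28 (log2 2.05 ± 0.36, adjusted p = 0.00196), all of them dim, and it did not pass with the gap as a covariate (1.10). Cacng2, which encodes stargazin, had 207, 236 and 233 in IH28D, against 142, 111 and 148 in Ctrl28 (log2 0.76 ± 0.21, adjusted p = 0.0299). The Ctrl arrays of Cacng2 were at 139, 114 and 99.2, also below every IH28D array. Those of Cacng8 were at 86.3, 71.9 and 47.2, above every IH28D array. The mean log2 signal of the AMPA receptor list was 7.64, 7.77 and 7.70 in IH28D, against 7.10, 7.15 and 7.22 in Ctrl28. On the Ctrl arrays it was 7.60 to 7.66, above every Ctrl28 array. Cnih2, which encodes a cornichon protein that slows receptor closing, had 294, 242 and 222 in IH28D, against 100.1, 85.2 and 95.9 in Ctrl28 (log2 1.42 ± 0.27, adjusted p = 0.00357). Porcn, which encodes a receptor-associated acyltransferase, had 277 ± 23.4 in IH28D and 181 ± 48.9 in Ctrl28 (mean ± SD of 3 arrays, log2 0.65 ± 0.16, adjusted p = 0.0174).

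Of the 4 pore-forming subunits, Gria4 passed, with 154, 301 and 176 in IH28D, against 86.7, 132 and 122 in Ctrl28 (log2 0.85 ± 0.25, adjusted p = 0.0439), and it did not pass without Ctrl28 array 1 or with the gap as a covariate (adjusted p = 0.0953 and 0.322). Gria1 had 1866, 1741 and 2180.5 in IH28D, against 1992, 1387 and 1469 in Ctrl28, and the groups overlapped (log2 0.27 ± 0.27, adjusted p = 0.588). Gria2 had 1689, 3004 and 1727 in IH28D, against 534, 1356 and 1770.5 in Ctrl28 (log2 0.92 ± 0.31, adjusted p = 0.0749). The highest Ctrl28 signal of Gria2 was 3.32 times the lowest, and its change was 0.41 without Ctrl28 array 1 and -0.02 with the gap as a covariate. Pick1 and Nsf, whose products bind GluA2 and move the receptor out of and into the synapse, did not pass (0.16 ± 0.18 and 0.09 ± 0.10, adjusted p = 0.636 and 0.589). In the AMPA receptor list, 8 rose and 0 fell without Ctrl28 array 1, and 8 rose and 0 fell with the gap as a covariate.

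The promoters of Cacng2 and Cnih2 are shown because both genes rose. Each run holds the 250 bases before the RefSeq start site (mouse build GRCm38.p6), 5′ to 3′ on the strand of the gene, and capitals mark each CG.
Cacng2 (chr15:78119281-78119530, - strand): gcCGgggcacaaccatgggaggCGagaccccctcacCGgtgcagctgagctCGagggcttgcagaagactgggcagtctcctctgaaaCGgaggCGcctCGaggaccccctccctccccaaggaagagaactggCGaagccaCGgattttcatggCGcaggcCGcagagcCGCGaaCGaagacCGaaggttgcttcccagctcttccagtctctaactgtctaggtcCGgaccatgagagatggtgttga
Cnih2 (chr19:5098522-5098771, - strand): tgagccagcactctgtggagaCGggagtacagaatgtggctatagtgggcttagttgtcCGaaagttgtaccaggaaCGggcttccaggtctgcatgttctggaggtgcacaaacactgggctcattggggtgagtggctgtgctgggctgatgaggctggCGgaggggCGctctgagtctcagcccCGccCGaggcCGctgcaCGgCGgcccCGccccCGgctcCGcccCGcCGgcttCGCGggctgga
These runs held 16 and 17 CG, and 62.0 and 65.6% of their bases were G or C. Over the 300 bases that span the start site, the median GC content was 62.3% for the 568 genes that rose and have a promoter in the table, 60.3% for 233 that fell and 61.3% for 9472 genes tested. ACGTG, the core letters of the HIF-1 binding motif, was searched in the same 300 bases on both strands. Among genes with 1 start site it stood in 100 of 435 that rose, 59 of 184 that fell (32.1%) and 1981 of 7450 tested (26.6%), and in 19.6% of all 32851 promoters of the table.

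Genes of vesicle release held rises. Of 47 genes of the synaptic vesicle and its release machinery, 11 rose (23.4%) and 0 fell, with a median log2 change of 0.22. Over all genes these shares were 6.05% and 2.45%. In the vesicle list, 17 rose and 2 fell without Ctrl28 array 1, and 16 rose and 2 fell with the gap as a covariate. Slc17a7, which encodes the vesicular glutamate transporter VGluT1, had 273, 207 and 283 in IH28D, against 173, 106 and 104 in Ctrl28 (log2 1.02 ± 0.17, adjusted p = 0.00146). Unc13a, whose product Munc13-1 primes vesicles, had 291, 278 and 320.4 in IH28D, against 108, 161 and 152 in Ctrl28 (log2 1.10 ± 0.18, adjusted p = 0.000893). Syt5, which encodes a synaptotagmin, had 181, 129 and 145 in IH28D, against 87.0, 43.6 and 38.6 in Ctrl28 (log2 1.51 ± 0.23, adjusted p = 0.000527). None of these genes overlapped between the groups. Syn1 (synapsin I), Bsn (the active zone scaffold Bassoon) and Vamp2 (the vesicle SNARE protein) rose by 0.87, 0.87 and 0.66. Syp, which encodes synaptophysin, had 1046, 942 and 959.9 in IH28D, against 1113, 261 and 319.9 in Ctrl28. It passed (log2 1.12 ± 0.33, adjusted p = 0.041) although Ctrl28 array 1 lay above all IH28D arrays, and its change was 1.77 without that array.

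Postsynaptic genes gave a count that turned on 1 array. Of 17 postsynaptic scaffold genes, 2 rose (11.8%) and 0 fell, with a median log2 change of 0.18. Of the same genes, 8 rose and 0 fell without Ctrl28 array 1, and 8 rose and 1 fell with the gap as a covariate. Dlg4, which encodes the scaffold PSD-95, had 764, 828 and 1013 in IH28D, against 385, 506 and 469.5 in Ctrl28 (log2 0.94 ± 0.14, adjusted p = 0.00043), and its other probe sets changed by 0.98 and 0.50. The Ctrl arrays of Dlg4 were at 1098, 1065 and 1029, above both groups. Camk2b, which encodes the beta subunit of calcium/calmodulin-dependent kinase II, had 1601, 1576 and 1863 in IH28D, against 1294, 1176 and 1196 in Ctrl28 (log2 0.46 ± 0.13, adjusted p = 0.0357). Camk2a, the alpha subunit, did not pass (log2 0.46 ± 0.14, adjusted p = 0.0524), and passed without Ctrl28 array 1 (0.55, adjusted p = 0.0153). Grin2c, an NMDA receptor subunit, rose by 0.98 ± 0.28, and Grin2c and Grik5 were the 2 that rose of 12 NMDA and kainate receptor genes, with 0 that fell. Of 10 genes of GABA-A receptors and gephyrin, 2 rose (20%) and 0 fell, with a median log2 change of 0.15. These were Gabrb2, with 616, 989 and 686 in IH28D, against 273, 464 and 562 in Ctrl28 (log2 0.85 ± 0.23, adjusted p = 0.0292), and Gabra2 (log2 0.98 ± 0.28, adjusted p = 0.0387). Neither passed without Ctrl28 array 1 or with the gap as a covariate, and 1 rose and 1 fell without Ctrl28 array 1, and 1 rose and 3 fell with the gap as a covariate. Of 9 metabotropic glutamate receptor and Homer genes, none passed with all arrays.

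**Figure D3:**
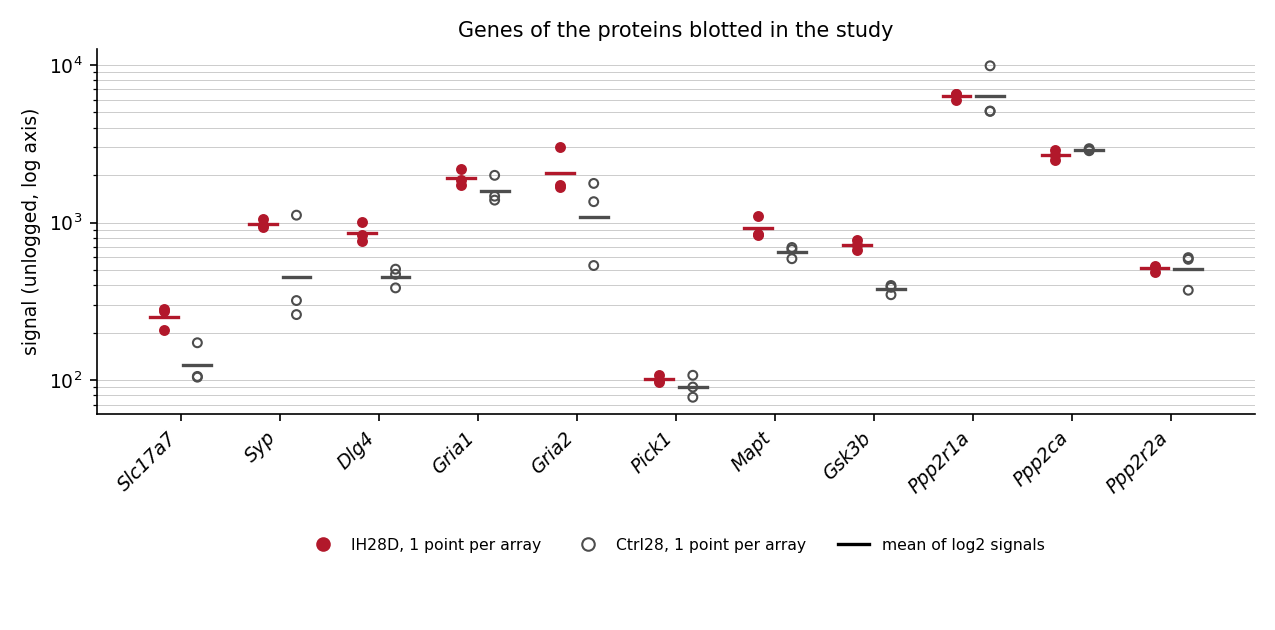
Signals (unlogged, log axis) of genes whose proteins were blotted in the study, 1 point per array, IH28D in filled red left of Ctrl28 in open grey, with the mean of log2 signals as a bar. The p70 S6 kinase, also blotted, is not shown. The study reports blots of GSK-3β and PP2A for Ctrl, IH5D and IH5DR2 and not for IH28D. Slc17a7, Dlg4, Mapt and Gsk3b do not overlap between the groups, and in Syp and Ppp2r1a a single Ctrl28 array, array 1, lies above all IH28D arrays.

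Genes of axonal transport held rises in each fit and falls in some. Of 34 genes of kinesins, dynein and their adaptors, 6 rose (17.6%) and 0 fell, with a median log2 change of 0.12. In this list 8 rose and 2 fell without Ctrl28 array 1, and 8 rose and 5 fell with the gap as a covariate. Among those that then fell, Kifap3, which encodes a kinesin-2 subunit, changed by -0.24 with all arrays, -0.36 without Ctrl28 array 1 and -0.49 with the gap. Mapk8ip1 and Mapk8ip3, which encode the JNK-interacting proteins that link kinesin-1 to its cargo, had 375, 334 and 429 in IH28D, against 146, 172 and 176 in Ctrl28 (log2 1.20 ± 0.13, adjusted p = 2.41e-05) and 463, 475 and 467 in IH28D, against 400.1, 236 and 213 in Ctrl28 (log2 0.78 ± 0.17, adjusted p = 0.00854). Dctn2, a dynactin subunit, rose by 0.40 ± 0.11. Of 28 tubulin and microtubule protein genes, 4 rose (14.3%) and 2 fell (7.14%), with a median log2 change of -0.09. Tubb4a, a beta-tubulin of neurons and oligodendrocytes, had 542, 432 and 510.2 in IH28D, against 337, 157 and 141 in Ctrl28 (log2 1.33 ± 0.23, adjusted p = 0.0015). Map1a, a microtubule-associated protein of dendrites, had 659, 565 and 742 in IH28D, against 534, 224 and 211 in Ctrl28, where Ctrl28 array 1 lay close to the IH28D arrays (log2 1.15 ± 0.25, adjusted p = 0.00849). Mapt, which encodes tau, had 849.6, 839 and 1102 in IH28D, against 674, 694 and 589 in Ctrl28 (log2 0.50 ± 0.13, adjusted p = 0.0269), and its other 3 probe sets changed by 0.02, 0.98 and 1.95. Mapt did not pass with the gap as a covariate (adjusted p = 0.0534).

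Several kinases that phosphorylate tau rose. Of 25 tau kinase genes, 5 rose (20%) and 1 fell (4%), with a median log2 change of 0.24. In this list 8 rose and 1 fell without Ctrl28 array 1, and 9 rose and 0 fell with the gap as a covariate. Gsk3b, which encodes glycogen synthase kinase 3 beta, had 669, 769.6 and 717 in IH28D, against 348, 399 and 388 in Ctrl28 (log2 0.93 ± 0.14, adjusted p = 0.000542). Its Ctrl arrays were at 556, 357 and 405. Its other 5 probe sets changed by 0.02 to 0.30, with unadjusted p between 0.367 and 0.945 in the limma fit. In the lowest of them, Ctrl28 arrays 2 and 3 (278 and 264) lay above every IH28D array (172, 184 and 222). Mark2, a microtubule affinity-regulating kinase, had 262, 230.0 and 311 in IH28D, against 164, 103 and 104 in Ctrl28 (log2 1.14 ± 0.17, adjusted p = 0.000416). The Ctrl arrays of Mark2 were at 250, 267 and 251, above every Ctrl28 array. Cdk5, the neuronal kinase activated by p35, rose by 0.74 ± 0.14, and Fyn, a tyrosine kinase of the synapse, by 0.70 ± 0.13, each with its 1 other probe set in the opposite direction. Csnk2a1, a catalytic subunit of casein kinase 2, fell (log2 -0.86 ± 0.19, adjusted p = 0.00879) and did not pass with the gap as a covariate (adjusted p = 0.108).

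Of 32 serine-threonine phosphatase genes, 4 rose (12.5%) and 1 fell (3.12%), with a median log2 change of 0.01. In this list 8 rose and 3 fell without Ctrl28 array 1, and 6 rose and 5 fell with the gap as a covariate. Genes of the protein phosphatase 2A (PP2A) subunits that the study blotted, in Ctrl, IH5D and IH5DR2 and not in IH28D, did not pass. Ppp2ca, the catalytic subunit, had 2679, 2499.5 and 2874 in IH28D, against 2854, 2886 and 2941 in Ctrl28 (log2 -0.11 ± 0.09, adjusted p = 0.493), and Ppp2r2a, a B subunit, changed by 0.02 ± 0.17. Ppp2r1a, the scaffold subunit, had 6507, 5991 and 6504 in IH28D, against 9865, 5069 and 5097 in Ctrl28 (log2 -0.0025 ± 0.18, adjusted p = 0.997), and it rose without Ctrl28 array 1 (0.32, adjusted p = 0.0262). Among those that passed, Ppp5c had 350.3, 337 and 360.0 in IH28D, against 247, 183 and 203 in Ctrl28 (log2 0.74 ± 0.15, adjusted p = 0.00557), and the PP2A regulatory subunit Ppp2r5b rose by 0.70 ± 0.13. Ppp4c rose by 0.77 ± 0.18 and did not pass with the gap as a covariate (adjusted p = 0.368). Ppm1b, a PP2C phosphatase, fell, with 826, 873 and 859 in IH28D, against 1132, 1247 and 1250.3 in Ctrl28 (log2 -0.50 ± 0.11, adjusted p = 0.0112).

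Genes of the Akt and mTOR pathway, which couples growth factors to protein synthesis, held rises at several levels. Of 33 genes, 7 rose (21.2%) and 1 fell (3.03%), with a median log2 change of -0.03. In this list 8 rose and 3 fell without Ctrl28 array 1, and 5 rose and 4 fell with the gap as a covariate. Akt1, the kinase itself, had 302, 266 and 296 in IH28D, against 161, 121 and 109.8 in Ctrl28 (log2 1.16 ± 0.14, adjusted p = 5.07e-05). Akt1s1 had 239, 205 and 245 in IH28D, against 70.0, 86.0 and 64.8 in Ctrl28. Tsc2, a brake on mTORC1, had 142, 153 and 221 in IH28D, against 88.3, 63.5 and 62.9 in Ctrl28 (log2 1.25 ± 0.20, adjusted p = 0.000818). The mTORC1 subunit Rptor rose by 0.62 ± 0.16. Rps6kb2, which encodes the second p70 S6 kinase, was dim and had 45.2, 54.7 and 41.9 in IH28D, against 25.8, 17.9 and 13.3 in Ctrl28 (log2 1.36 ± 0.25, adjusted p = 0.00276). Rps6, the ribosomal protein that these kinases phosphorylate, was the member that fell (log2 -0.54 ± 0.16, adjusted p = 0.0482). Activators and inhibitors of the pathway were both among those that rose. Of 43 genes of MAP kinase cascades, 4 rose (9.30%) and 0 fell, with a median log2 change of 0.21. Without Ctrl28 array 1, 6 of them rose, and with the gap as a covariate 4 rose. In those fits 11.4 and 11.0% of all genes rose. Map3k3 changed by 0.70 ± 0.16 and Araf by 0.81 ± 0.22. Map4k4 had 1 of 4 probe sets higher (0.53 ± 0.15), and its change turned to -0.14 on the mean of its probe sets. Rps6 and Map4k4 did not pass without Ctrl28 array 1, and Rps6, Map4k4, Rptor and Araf did not with the gap as a covariate, where the change of Araf was 0.01.

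Potassium channel and secretory granule genes held rises. Of 34 potassium channel genes, 4 rose (11.8%) and 0 fell, with a median log2 change of 0.13. Kcnip2, a Kv4 channel-interacting protein, had 555, 584 and 483 in IH28D, against 302, 231 and 199 in Ctrl28 (log2 1.17 ± 0.16, adjusted p = 0.000275), and Kcnab2, a Kv1 beta subunit, had 1406, 1227 and 1529 in IH28D, against 894, 558 and 539.7 in Ctrl28 (log2 1.10 ± 0.16, adjusted p = 0.000429). Kcnip3, which encodes the calcium sensor DREAM, was dim, with 58.2, 64.7 and 48.1 in IH28D, against 14.5, 30.2 and 4.89 in Ctrl28 (log2 2.13 ± 0.50, adjusted p = 0.0135) and 1 of its 2 probe sets higher. Of 23 sodium, calcium and HCN channel genes, none passed (median log2 0.24), and 3 rose in each of the other fits, in which 11.4 and 11.0% of all genes rose. Of 19 genes of granules and prohormone processing, 3 rose (15.8%) and 0 fell, with a median log2 change of 0.03. Ptprn, which encodes the granule membrane protein IA-2, had 473, 479.8 and 559 in IH28D, against 366, 170.0 and 267 in Ctrl28 (log2 0.98 ± 0.20, adjusted p = 0.00504).

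Glycolysis genes held rises, and the falls among genes of oxidative phosphorylation depended on the fit. Of 17 glycolysis genes, 4 rose (23.5%) and 1 fell (5.88%), with a median log2 change of 0.19, against 6.05% and 2.45% of all genes. Pkm, which encodes pyruvate kinase, had 1601, 1478 and 1466 in IH28D, against 826, 562 and 542 in Ctrl28 (log2 1.26 ± 0.13, adjusted p = 2.31e-05). Pfkm, a phosphofructokinase, had 1314, 1309 and 1423 in IH28D, against 982, 831 and 797 in Ctrl28 (log2 0.64 ± 0.11, adjusted p = 0.00186), and Eno2, the neuronal enolase, had 2112, 2056 and 2436 in IH28D, against 1789.7, 1311 and 1140.5 in Ctrl28 (log2 0.66 ± 0.14, adjusted p = 0.00849). Pgk1, a known HIF-1 target, fell, with 2264, 2151 and 2273 in IH28D, against 4153, 2815 and 2852 in Ctrl28 (log2 -0.53 ± 0.14, adjusted p = 0.024). Its Ctrl28 array 1 was the highest, and it did not pass with the gap as a covariate (-0.20). The median of the list was 0.29 without Ctrl28 array 1 and 0.38 with the gap as a covariate. The mean log2 signal of the glycolysis list was 10.36, 10.26 and 10.32 in IH28D, against 10.43, 9.99 and 9.97 in Ctrl28. On the Ctrl arrays it was 10.52 to 10.80, above both groups.

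Of 71 genes of oxidative phosphorylation, 0 rose and 4 fell (5.63%), with a median log2 change of -0.36, and only 6 had a change above 0. The 4 that fell were Ndufb11, Ndufb8 and Ndufs8, of complex I, and Uqcrc2, of complex III. Ndufb11 had 2574, 2119 and 1541 in IH28D, against 4287, 2912 and 2939 in Ctrl28 (log2 -0.71 ± 0.18, adjusted p = 0.0216), and Ndufs8 had 2092, 1726 and 1545 in IH28D, against 4583, 2238 and 2319 in Ctrl28 (log2 -0.70 ± 0.21, adjusted p = 0.0475). Ctrl28 array 1 was the highest of the 6 arrays in all 4 genes. Ndufb8, Ndufs8 and Uqcrc2 did not pass without it (adjusted p = 0.0913, 0.106 and 0.0789), and none of the 4 passed with the gap as a covariate. Of the 71 genes, 0 rose and 2 fell without Ctrl28 array 1, and 2 rose and 1 fell with the gap as a covariate. Of all genes, 2.45% fell with all arrays, 4.19% without Ctrl28 array 1 and 4.94% with the gap. Only with all arrays was the share that fell larger in the list than over all genes. The median of the list was -0.12 without Ctrl28 array 1 and 0.08 with the gap as a covariate, so its sign was not the same in the 3 fits. Of 20 tricarboxylic acid cycle genes, 1 rose (5%) and 3 fell (15%), with a median log2 change of -0.19. Mdh2, Fh1 and Cs fell by 0.49, 0.49 and 0.45 on the log2 scale, and none of them passed without Ctrl28 array 1 or with the gap as a covariate. Other probe sets changed by 0.14 for Mdh2 and by 0.21 and 0.29 for Cs. Ogdh, which encodes a subunit of 2-oxoglutarate dehydrogenase, rose, with 484, 414 and 485 in IH28D, against 281, 274 and 243 in Ctrl28 (log2 0.79 ± 0.12, adjusted p = 0.000761).

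The antioxidant enzymes were split. Of 26, 2 rose (7.69%) and 3 fell (11.5%), with a median log2 change of -0.05. Cat, which encodes catalase, had 377, 320.1 and 354 in IH28D, against 888, 469 and 501 in Ctrl28 (log2 -0.76 ± 0.18, adjusted p = 0.0146), and Sod2, the mitochondrial superoxide dismutase, had 667, 541 and 518 in IH28D, against 1368, 756 and 742 in Ctrl28 (log2 -0.68 ± 0.19, adjusted p = 0.0341). In both, Ctrl28 array 1 stood well above arrays 2 and 3, and neither passed with the gap as a covariate (-0.19 and -0.12), nor did Sod2 without Ctrl28 array 1. Gss, which encodes glutathione synthetase, fell by 0.80 on 1 of its 2 probe sets and did not pass with the gap. Gstm1, a glutathione transferase, had 977, 683 and 964 in IH28D, against 662, 525 and 515 in Ctrl28 (log2 0.62 ± 0.14, adjusted p = 0.0118), and its other 3 probe sets changed by 0.99, 0.13 and 0.11.

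Ribosomal protein and proteasome genes held more falls than rises. Of 44 cytosolic ribosomal protein genes, 0 rose and 4 fell (9.09%), with a median log2 change of -0.37, and 3 had a change above 0. Rps10 had 4775, 4141 and 3158 in IH28D, against 8199.9, 5082 and 5434 in Ctrl28 (log2 -0.62 ± 0.18, adjusted p = 0.0414), and Rpsa had 2819.7, 2247 and 2088 in IH28D, against 4136, 3062 and 3285 in Ctrl28 (log2 -0.55 ± 0.15, adjusted p = 0.03). None of the list passed without Ctrl28 array 1 or with the gap as a covariate, and the median was -0.20 without Ctrl28 array 1 and -0.05 with the gap as a covariate. Of 40 proteasome genes, 1 rose (2.50%) and 5 fell (12.5%), with a median log2 change of -0.12. Of these, 1 rose and 4 fell without Ctrl28 array 1, and 2 rose and 4 fell with the gap as a covariate. Psma5, of the 20S core, had 1009, 1039 and 802 in IH28D, against 1914, 1353 and 1350.2 in Ctrl28 (log2 -0.69 ± 0.18, adjusted p = 0.0226), without passing when the gap was a covariate, and Psmd9, an assembly chaperone of the 19S cap, rose (0.60 ± 0.16). Of 76 mitochondrial ribosomal protein genes, 3 rose (3.95%) and 3 fell (3.95%), with a median log2 change of -0.23. Their median was -0.11 without Ctrl28 array 1 and 0.00 with the gap as a covariate. Mrpl4 had 344, 308 and 376 in IH28D, against 244, 179 and 157 in Ctrl28 (log2 0.84 ± 0.14, adjusted p = 0.00132) and Mrps9 had 193, 173 and 162 in IH28D, against 270.2, 265 and 254 in Ctrl28 (log2 -0.59 ± 0.13, adjusted p = 0.0122). Eef1a2, the elongation factor of neurons and muscle, had 1201, 1074 and 1261 in IH28D, against 580.2, 701 and 662 in Ctrl28 (log2 0.86 ± 0.12, adjusted p = 0.000275).

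**Figure D4:**
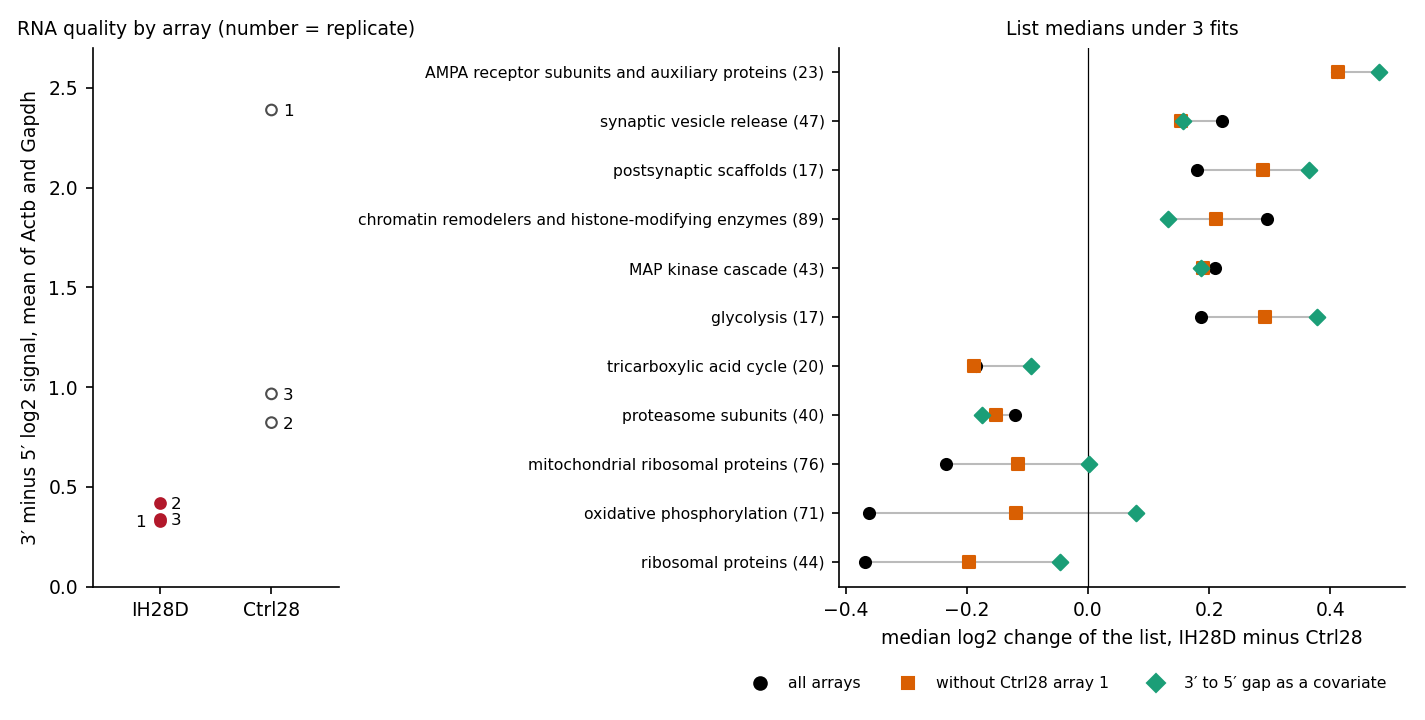
Left, the 3′ minus 5′ log2 signal of Actb and Gapdh (mean) on each array, IH28D left of Ctrl28, with replicate numbers beside the points. Right, the median log2 change of 11 gene lists (members tested in parentheses) in the fit of all arrays (black circles), without Ctrl28 array 1 (orange squares) and with that gap as a covariate (green diamonds). The median of oxidative phosphorylation lies at -0.36, -0.12 and 0.08, and that of the AMPA receptor list at 0.41, 0.41 and 0.48.

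Among nuclear genes, some chromatin regulators rose. Of 89 chromatin remodelers and histone-modifying enzymes, 14 rose (15.7%) and 0 fell, with a median log2 change of 0.30, and 72 had a change above 0. In this list 22 rose and 2 fell without Ctrl28 array 1, and 21 rose and 4 fell with the gap as a covariate. Ehmt2, which encodes the histone H3 lysine 9 methyltransferase G9a, had 514, 486 and 549 in IH28D, against 276, 208 and 211 in Ctrl28 (log2 1.17 ± 0.12, adjusted p = 2.31e-05). Hdac7, a class IIa histone deacetylase, had 56.3, 65.9 and 54.4 in IH28D, against 17.5, 27.5 and 25.2 in Ctrl28 (log2 1.35 ± 0.22, adjusted p = 0.00119), and its Ctrl arrays were at 39.9, 24.2 and 36.9. Kmt2b, a histone H3 lysine 4 methyltransferase, had 185, 213 and 229.6 in IH28D, against 134, 122 and 95.8 in Ctrl28 (log2 0.84 ± 0.14, adjusted p = 0.0013). Both repressive and activating enzymes were among those that rose. Mbd3 and Chd4, subunits of the NuRD complex, rose by 0.97 and 0.79, the demethylase gene Kdm4b by 0.94 and the remodeler gene Atrx by 0.95. Other probe sets of Chd4 changed by 0.11 and -0.13. Kdm4b and Atrx did not pass with the gap as a covariate.

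The shares of splicing factor and Zfp genes that rose lay near those of all genes. Of 103 splicing factor genes, 7 rose (6.80%) and 4 fell (3.88%), with a median log2 change of 0.08, against 6.05% and 2.45% of all genes. Their median was -0.04 without Ctrl28 array 1 and -0.06 with the gap as a covariate. Prpf8, the core protein of the spliceosome, had 651, 629.7 and 759 in IH28D, against 458, 435 and 373 in Ctrl28 (log2 0.69 ± 0.11, adjusted p = 0.0011), and Ptbp1, a repressor of neuronal exons, had 183, 194 and 183 in IH28D, against 112, 102 and 91.4 in Ctrl28 (log2 0.88 ± 0.16, adjusted p = 0.00285). Snrpa1, of the U2 particle, fell (log2 -0.59 ± 0.12, adjusted p = 0.00434), as did the neuronal regulator Rbfox2 (log2 -0.87 ± 0.23, adjusted p = 0.0292). Of 58 genes of nuclear transport and RNA export, 6 rose (10.3%) and 2 fell (3.45%), with a median log2 change of 0.06. Rangap1, which encodes the GTPase-activating protein of Ran, rose by 0.72 ± 0.12, and Ran fell (-0.50 ± 0.13). The other probe set of Rangap1 changed by -0.26. Snrpa1 and Ran did not pass with the gap as a covariate, and the median of the transport genes was -0.09 without Ctrl28 array 1 and -0.13 with the gap as a covariate. Of 257 genes with a Zfp symbol, which encode zinc finger proteins, 13 rose (5.06%) and 2 fell (0.778%), with a median log2 change of 0.16. Their median was 0.06 without Ctrl28 array 1 and -0.03 with the gap as a covariate. Zfp740 had 153, 167 and 196 in IH28D, against 92.0, 73.5 and 76.0 in Ctrl28 (log2 1.10 ± 0.15, adjusted p = 0.000193). Of 68 ubiquitin-conjugating enzymes and ubiquitin-specific proteases, 7 rose (10.3%) and 1 fell (1.47%), with a median log2 change of 0.04, and Usp5 changed by 0.70 ± 0.13 and Ube2d1 by 0.82 ± 0.16. The excess of rises in this list was not kept, since 7 rose and 5 fell without Ctrl28 array 1, and 8 rose and 10 fell with the gap as a covariate.

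A few genes of neuronal activity rose. Of 26 immediate early genes, 4 rose (15.4%) and 0 fell, with a median log2 change of 0.36. Without Ctrl28 array 1, 6 of them rose, and with the gap as a covariate 3 rose, where 11.4 and 11.0% of all genes rose. Junb had 96.2, 92.1 and 95.7 in IH28D, against 48.8, 42.4 and 32.6 in Ctrl28 (log2 1.22 ± 0.20, adjusted p = 0.00105), and Egr4 had 50.4, 45.8 and 64.3 in IH28D, against 22.1, 20.3 and 12.7 in Ctrl28 (log2 1.57 ± 0.26, adjusted p = 0.00105). Arc, whose product removes AMPA receptors from synapses, had 305, 283 and 539 in IH28D, against 204, 173 and 69.4 in Ctrl28 (log2 1.41 ± 0.48, adjusted p = 0.0729), and it passed without Ctrl28 array 1 (1.71). Fos had 306, 291 and 421 in IH28D, against 284, 278 and 70.2 in Ctrl28 (log2 0.92 ± 0.56, adjusted p = 0.323). In Fos, arrays 1 and 2 of Ctrl28 lay near the lower IH28D arrays and array 3 far below, and the groups did not overlap in either gene. Egr1 and Npas4 did not pass (0.37 ± 0.23 and 0.89 ± 1.03). Of 20 clock genes, 3 rose (15%) and 0 fell, with a median log2 change of 0.22. Per1, which also responds to activity and glucocorticoids, had 231, 266 and 306 in IH28D, against 256, 141 and 111 in Ctrl28 (log2 0.74 ± 0.22, adjusted p = 0.0402), and Cry2 rose by 0.48 ± 0.13. Dbp, an output gene of the clock, had 927, 786 and 759.7 in IH28D, against 2017, 1203 and 1021 in Ctrl28 and did not pass (log2 -0.72 ± 0.23, adjusted p = 0.0549). Its other probe set changed by 0.20. The unknown hour of death of Ctrl28 touches these genes and was not tested.

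The hypoxia response list held 1 call at the end of the 28 days. Of 28 genes of the hypoxia response, 0 rose and 1 fell (3.57%), with a median log2 change of -0.03. Of all genes 6.05% rose and 2.45% fell, and the count of so small a list cannot set it apart from them. Without Ctrl28 array 1, 11.4% of all genes rose and 4.19% fell, and with the gap as a covariate 11.0% rose and 4.94% fell. In the hypoxia response list, 2 rose and 1 fell in each of those fits. These were Hif3a, an inhibitory HIF subunit, with changes of 1.08 with all arrays, 1.51 without Ctrl28 array 1 and 1.95 with the gap, Egln2, a HIF prolyl hydroxylase, with 0.27, 0.44 and 0.57, and Bnip3, a mitophagy receptor, with -0.23, -0.35 and -0.48. Vegfa, the vascular growth factor, had 107, 106 and 76.0 in IH28D, against 129.6, 94.1 and 78.0 in Ctrl28 (log2 -0.05 ± 0.21, adjusted p = 0.915). Hif1a had 543, 584 and 552 in IH28D, against 508, 686 and 801 in Ctrl28 (log2 -0.22 ± 0.17, adjusted p = 0.449), and Slc2a1, the glucose transporter of the blood-brain barrier, 889, 798 and 1096 in IH28D, against 1729, 946 and 870.5 in Ctrl28 (log2 -0.29 ± 0.20, adjusted p = 0.4). The other probe sets of Slc2a1 changed by -0.19 and 0.58. For Vegfa the 95% interval of the change ran from -0.49 to 0.39. Ndrg1 was the member that fell with all arrays (log2 -0.57 ± 0.17, adjusted p = 0.0463), passed in neither other fit, and had probe sets that disagreed. The brightest had a change of -0.57 and another 0.75, with signals of 246.5, 183 and 288 in IH28D, against 89.7, 168 and 179 in Ctrl28. Of 19 glucocorticoid receptors and targets, 3 rose (15.8%) and 0 fell, with a median log2 change of -0.02. Plin4, a lipid droplet protein, had 53.7, 70.7 and 76.7 in IH28D, against 35.9, 31.0 and 11.0 in Ctrl28 (log2 1.53 ± 0.41, adjusted p = 0.0284), and Zbtb16 had 294, 291 and 437 in IH28D, against 218, 212 and 233 in Ctrl28 (log2 0.60 ± 0.16, adjusted p = 0.0304), without passing when the gap was a covariate. Fkbp5 and Sgk1 did not pass (0.14 ± 0.15 and -0.26 ± 0.21). Of 32 heat shock genes, Stip1, a cochaperone, rose (0.69 ± 0.17), and 3 rose and 1 fell without Ctrl28 array 1, and 3 rose and 2 fell with the gap as a covariate. Over all genes, 11.4 and 11.0% rose in those fits.

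Markers of hippocampal neurons were present and none passed with all arrays. Of 15 genes of CA1 and CA3 pyramidal neurons, 13 of dentate granule cells and 20 of interneurons, all were tested and none rose or fell (medians 0.02, 0.10 and 0.13), and 5 interneuron genes rose without Ctrl28 array 1 and 5 with the gap as a covariate. Sst, the somatostatin gene, had changes of 0.47 with all arrays, 0.92 without Ctrl28 array 1 and 1.33 with the gap. Of the granule cell genes, Prox1, a transcription factor of these cells, fell in both of those fits (-1.36 and -1.74, against -1.02 with all arrays). In whole tissue, fewer cells of a type and less RNA per cell cannot be told apart. Of 14 choroid plexus genes, all had a change below 0 and none passed (median log2 -1.06). Ttr, the transthyretin gene of that tissue, had 14642, 15460.5 and 4774 in IH28D, against 17269, 14439.9 and 16225 in Ctrl28, with IH28D array 3 the lowest. The mean log2 signal of the choroid plexus list was 8.26, 8.24 and 5.43 in IH28D, against 8.68, 8.31 and 8.11 in Ctrl28. The groups overlapped in it, and its part in other results was not tested.

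Microglial genes moved in both directions. Of 20 microglia and macrophage genes, 3 rose (15%) and 3 fell (15%), with a median log2 change of -0.07. In this list 2 rose and 4 fell without Ctrl28 array 1, and 2 rose and 1 fell with the gap as a covariate. C1qb had 326, 246 and 285 in IH28D, against 134, 170.2 and 164 in Ctrl28 (log2 0.87 ± 0.15, adjusted p = 0.00195), C1qc had 216, 169.6 and 184 in IH28D, against 134, 99.4 and 91.4 in Ctrl28 (log2 0.82 ± 0.15, adjusted p = 0.00284), and C1qa rose by 0.62 ± 0.17. These genes encode the 3 chains of complement C1q. C1qb had 2 further probe sets, both with a change below 0 and both of the _x_at kind, whose probes also match other sequences. C1qa did not pass without Ctrl28 array 1 or with the gap as a covariate. Besides Lyz1, Laptm5, which encodes a lysosomal membrane protein, had 129, 123 and 129 in IH28D, against 278, 175 and 188 in Ctrl28 on an _x_at set (log2 -0.72 ± 0.15, adjusted p = 0.00575), while its other 3 probe sets changed by -0.02, 0.18 and 0.10. Both probe sets of Lyz1 were of the _x_at kind, so their signal cannot be assigned to Lyz1 alone. Ctss, which encodes cathepsin S, fell (log2 -0.52 ± 0.14, adjusted p = 0.0315). None of Lyz1, Laptm5 and Ctss passed with the gap as a covariate. Aif1, the gene of the microglial marker IBA1, did not pass (log2 -0.66 ± 0.27, adjusted p = 0.134).

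Rises and falls were both found among genes of other cell types. Of all genes 6.05% rose and 2.45% fell. Apoe, the apolipoprotein E gene of astrocytes, had 5038, 4123 and 3878 in IH28D, against 1984, 2799 and 2657 in Ctrl28 (log2 0.82 ± 0.14, adjusted p = 0.00173), and Ntsr2, another astrocyte gene, rose by 0.61 ± 0.16. Gfap did not pass (log2 -0.71 ± 0.38, adjusted p = 0.254), and 2 of its 3 probe sets had a change above 0. Of 17 oligodendrocyte genes, Opalin fell (log2 -0.70 ± 0.19, adjusted p = 0.0308) and did not pass with the gap as a covariate. Mbp, the gene of myelin basic protein, changed by -0.03 ± 0.10 on its brightest probe set. The changes of its other probe sets ranged between -0.86 and 1.68. Among 21 genes of endothelial cells and pericytes, 2 rose (9.52%) and 2 fell (9.52%), with a median log2 change of 0.04. Bsg (basigin) had 1659, 1425 and 1011 in IH28D, against 711, 499.5 and 518 in Ctrl28 (log2 1.23 ± 0.19, adjusted p = 0.000663), and Slco1a4, an organic anion transporter of the blood-brain barrier, had 203, 281 and 169 in IH28D, against 299, 322 and 429 in Ctrl28 (log2 -0.70 ± 0.19, adjusted p = 0.0317). Cldn5, which encodes claudin 5, did not pass (-0.19 ± 0.17). Of 24 genes of the interferon response and MHC class I, 1 rose (4.17%) and 2 fell (8.33%), with a median log2 change of -0.12. H2-D1, an MHC class I gene, rose, with 258, 240.3 and 227 in IH28D, against 117, 133 and 143 in Ctrl28 (log2 0.89 ± 0.19, adjusted p = 0.00647), on 3 probe sets that were all higher and all of the _x_at kind, and did not pass with the gap as a covariate. Ifi35 and Trim25 fell (-0.86 ± 0.23 and -0.77 ± 0.22), and 0 of the list fell in either other fit. Of 31 genes of apolipoproteins and cholesterol handling, 5 rose (16.1%) and 2 fell (6.45%), with a median log2 change of -0.03. Lcat, whose product esterifies cholesterol, rose by 1.08 ± 0.17, and Srebf2, the transcription factor of cholesterol synthesis, by 0.88 ± 0.19.

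**Figure D5:**
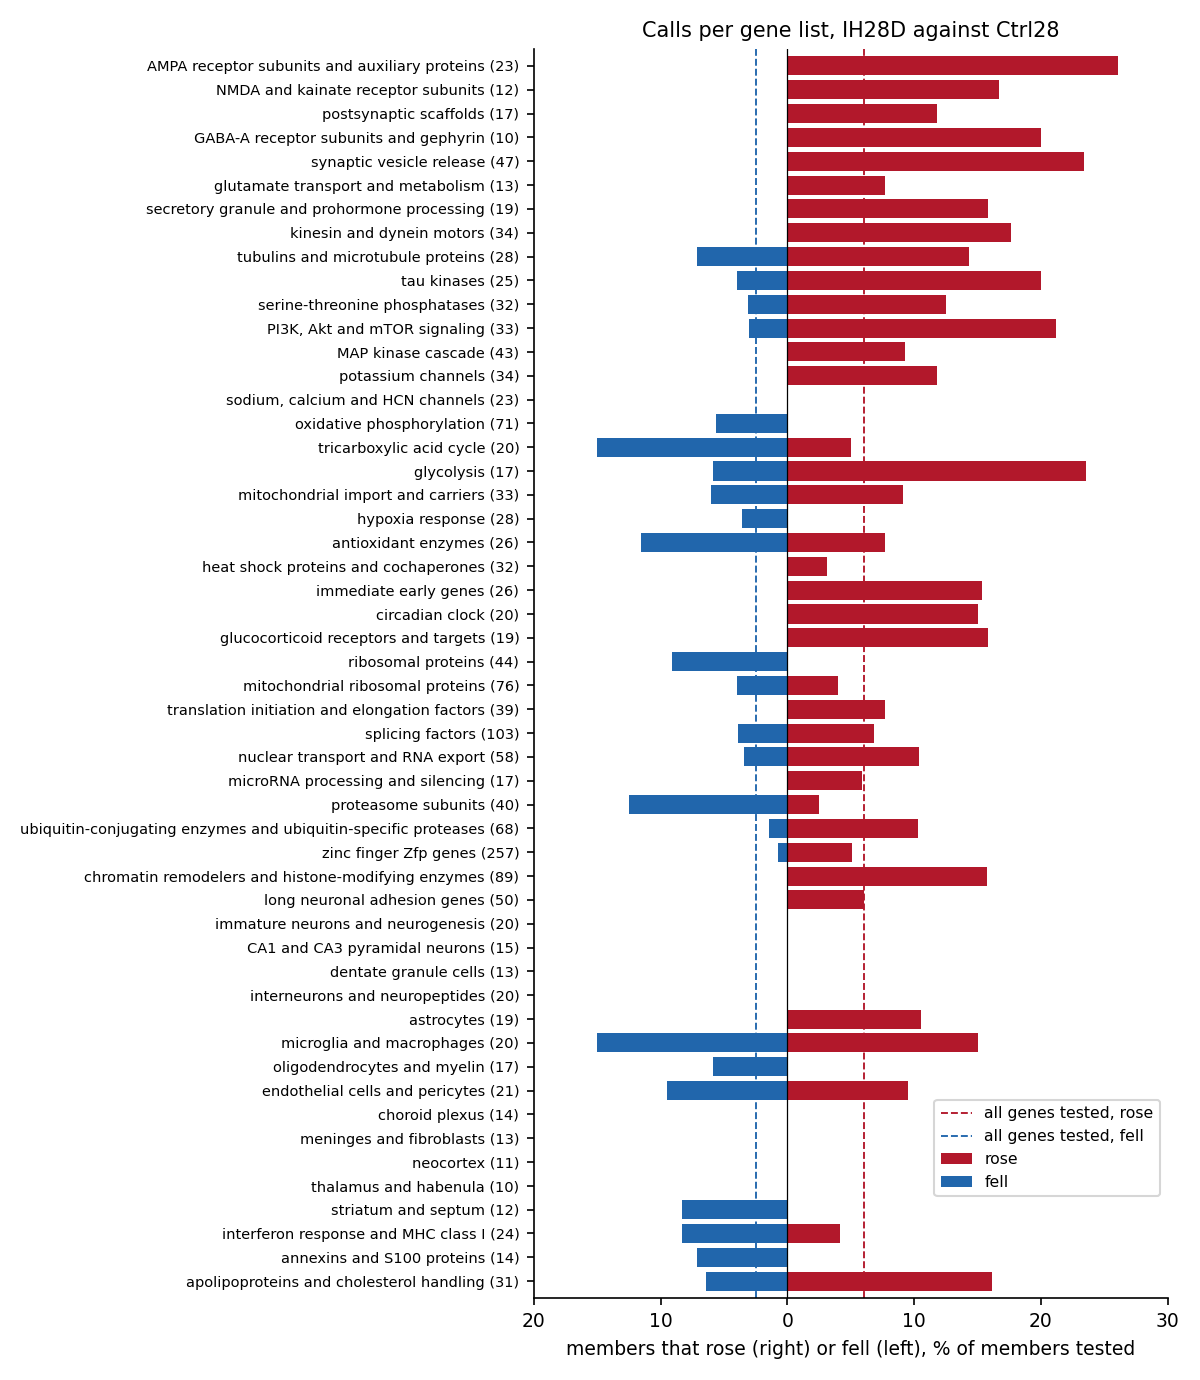
Share of members that rose (red, right) or fell (blue, left) in each gene list with 10 or more members tested (number in parentheses), in percent of the members tested. Dashed lines mark the shares over all genes tested, 6.05% that rose and 2.45% that fell. Synaptic and transport lists extend to the right, and oxidative phosphorylation, ribosomal protein and proteasome lists to the left.

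Probe sets of different kinds gave different changes for the same genes. On these arrays, probe sets marked _x_at hold probes that also match other sequences, and those marked _s_at match several transcripts. Among the 516 genes represented by an _x_at set, 2.13% rose and 14.7% fell (median log2 -0.31), against 6.38% and 1.11% of 8741 genes with an unmarked set (median 0.05). Sets of the _x_at or _s_at kind stood for 4.82% of the genes that rose, 41.4% of those that fell and 11.4% of all genes tested. For 862 genes with both an _x_at set and an unmarked or _a_at set above the minimum signal, the median change was -0.26 on the _x_at sets and 0.08 on the others, and the _x_at change was the lower in 78.1% of them. On the _x_at sets of these genes, the median log2 difference from the IH28D mean was 0.59 for Ctrl28 array 1, against 0.12 for each of arrays 2 and 3. Fdft1, which encodes squalene synthase, fell by 0.70 on an _x_at set with 641, 552 and 539 in IH28D, against 1326, 757 and 814 in Ctrl28, and did not pass with the gap as a covariate. Its unmarked set was higher by 0.66, with signals of 405, 379 and 415 in IH28D, against 271, 241 and 246 in Ctrl28. Ppp2r1a likewise moved by 0.71 on its _a_at set, while 3 bright _x_at sets were at -0.01 to 0.00.

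Several probe sets of a gene did not always move together. Of 255 genes that rose and have several probe sets above the minimum, all sets were higher in 165 (64.7%), and of 211 that fell, all were lower in 110 (52.1%). The other probe sets had a median change of 0.35 in genes that rose and -0.14 in genes that fell. The median signal of the 6 arrays was 415 for genes that fell, 165 for genes that rose and 141 for all genes tested. The median length of the gene in the genome was 20.9 kb for genes that rose, 23.5 kb for genes that fell and 25.1 kb for all.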

How the data were processed

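Total hippocampal RNA was hybridised to Affymetrix Mouse 430 2.0 arrays. Per the submitters' notes and the methods, the authors obtained normalized MAS5 signals from the probe intensities and deposited them as log2 signals, in a trimmed scaling that sets every array to a common level and so hides a shift of all genes together. They were unlogged only where a signal or minimum is given. With 3 arrays a group, precision rests on the number of arrays.

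Of 45101 probe sets, 64 were manufacturer controls, 34945 matched 1 gene, 932 several and 9160 none in the platform annotation, and symbols were updated by gene ID. Probe sets with a mean signal above 20 were kept (22987), and the one of highest mean signal stood for each of 11656 genes. The design fitted 1 mean per group to all 18 arrays with limma 3.58.1 in R 4.3.3, with moderated variances, a trend and 12 residual degrees of freedom. p-values were adjusted over all genes (Benjamini-Hochberg). The fit was also run on data simulated with known changes. There each gene had the same spread in every array, so an outlying array such as Ctrl28 array 1 was not simulated.

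Genes were named by rule: the 12 largest rises and falls that passed, a mean of 100 or more in either group and no overlap, up to 4 members of smallest p from each of 56 gene lists, and a fixed panel. Gria4, Syn1, Bsn, Vamp2, C1qa, Ctss, Chd4, Atrx, Rptor, Csnk2a1, Rbfox2, Fdft1, Kdm4b, Hif3a, Egln2, Bnip3, Sst, Prox1 and Kifap3 were named after their values were seen. The comparison, lists and panel were chosen with earlier results of these data known, so the lists are described by counts and medians without a test. Lists share members. Alternatives concerned the arrays in the fit, weights, the 3′ to 5′ gap, scaling, signal minimum, probe sets, trend, replicate block and the methods' Welch test. Promoter sequences and gene lengths came from RefSeq (GRCm38.p6). The hybridisation series of other laboratories that the study compared were not used here.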

Additional observations from a re-analysis of the deposited data

How the results depend on the processing

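The counts of genes that rose and fell moved with the arrays that set the spread. With the IH28D and Ctrl28 arrays alone, 34 rose and 1 fell (1789 at an unadjusted p below 0.05). With array weights 2058 rose and 1332 fell, and Ctrl28 array 1 had a weight of 0.103, against 6.36 for array 2. With the gap as a covariate 1281 rose and 576 fell, of which 503 and 62 were among the 705 and 285. Median centring gave 410 rises beside 401 falls, so 50.6% of calls were rises against 71.2%. The mean of all probe sets gave 164 falls, and leaving out _x_at and _s_at sets gave 180. Leaving out each of the 18 arrays gave 347 to 1330 rises and 75 to 488 falls, with the fewest rises without IH28D array 3, the fewest falls without IH28D array 2 and the most of both without Ctrl28 array 1. Without IH28D array 1, 482 rose and 203 fell, and without IH28D array 3, 115 fell. Chosen after seeing the data, the compared arrays alone without Ctrl28 array 1 gave 1109 rises and 389 falls. The Welch test of the methods gave 0 rises and 1 fall on unlogged signals and 0 and 0 on log2 signals after adjustment, with 1194 genes at an unadjusted p below 0.05 on either scale.

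The labels do not say whether equal replicate numbers pair the arrays. Deviations from the group means of the same number correlated at 0.21, 0.16 and -0.07. IH28D array 1 correlated best with Ctrl28 array 1, and IH28D array 2 best with Ctrl28 array 3 (0.26). With so few arrays a group, these values cannot decide whether the numbers pair. With the replicate block, 623 rose and 227 fell over all arrays, and 35 rose and 1 fell in the compared arrays alone.

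Of 193 genes named by rule or in the text, 167 passed, 144 of these kept their call without Ctrl28 array 1, and 103 with the gap as a covariate. Some values changed sign with other probe sets. Without _x_at and _s_at sets the changes were 0.25 for Ric8a, -0.59 for Map4k4, 0.75 for Ndrg1, 0.25 for Gss, -0.30 for Mrpl38, 0.11 for Psmc2, 0.35 for Psmd11, 0.71 for Ppp2r1a and 0.66 for Fdft1. On the mean of all probe sets they were -0.14 for Map4k4, 0.019 for Cs, 0.024 for Ndrg1 and 0.058 for Psmd11. Ppp2r1a rose by 0.31 with array weights, 0.64 with the gap as a covariate and ranged over -0.16 to 0.32 when each array was left out, the highest without Ctrl28 array 1, and Rbfox3 rose by 0.59 with the gap. The cause of these differences was not tested. Levels near background, under a signal of about 20, cannot be read from these arrays.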
